A study of Mus musculus with 4 samples.

Results

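Mitochondrial ribosomal protein genes were taken as all genes whose symbol in the deposited files starts with Mrpl or Mrps followed by a number. The rule found 85 transcript records of 76 genes, among 27267 genes in all. Of these, 47 carry Mrpl symbols for the large subunit and 26 Mrps symbols for the small subunit. Mrps18a and Mrps30 carry small-subunit symbols but sit in the large subunit. Mrps36 is now known as a component of the 2-oxoglutarate dehydrogenase complex and not of the ribosome. RNA came from cardiomyocytes of CD1 mice at postnatal day 1, kept in culture and collected 72 h after transfection. There was 1 library for each of 4 conditions, namely mock transfection, a mimic of the worm (Caenorhabditis elegans) microRNA cel-miR-67, which serves here as the second control, and mimics of the human microRNAs hsa-miR-590-3p and, separately, hsa-miR-199a-3p. Cells were reverse transfected with Lipofectamine RNAiMAX, each mimic at 50 nM. The labels do not say how many animals a library pools. With 1 library per condition no difference has a replicate check and no test was possible.

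Mitochondria keep their own ribosome, which translates a small set of respiratory chain proteins and is descended from a bacterial one. All of its proteins are encoded in the nucleus, made in the cytosol and imported, where they assemble on ribosomal RNA transcribed from mitochondrial DNA. Some members have bacterial relatives and others are found in mitochondria only. Heart muscle depends on oxidative phosphorylation, whose core subunits this ribosome makes, and the newborn heart is known for a postnatal shift to oxidative metabolism.

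The mock library had 31638930 reads, the cel-miR-67 library 34255689, the hsa-miR-590-3p library 34452240 and the hsa-miR-199a-3p library 38745528. Members took 83982, 89767, 86405 and 108096 of these reads in the same order, or 0.265%, 0.262%, 0.251% and 0.279%. All 8 cardiomyocyte markers were present at 597 CPM or more in every library (CPM are counts scaled to library size), and their summed level was 53956 CPM in mock, 48983 with cel-miR-67, 36968 with hsa-miR-590-3p and 36050 with hsa-miR-199a-3p. All 8 were below both controls with either human mimic. All 6 fibroblast markers were present too, at summed levels between 9886 and 11654 CPM. Single fibroblast markers went both ways. With hsa-miR-199a-3p 3 were above and 3 below each control, at log2 ratios from -2.05 to 0.74 against cel-miR-67 and from -1.61 to 0.52 against mock. With hsa-miR-590-3p 4 were above and 2 below each control. Smooth muscle and pericyte markers summed to between 4015 and 5886 CPM, endothelial markers to between 158 and 216 CPM and epicardial markers to between 107 and 176 CPM. Macrophage markers summed to between 5.74 and 17.7 CPM and the erythroid ones to at most 0.348 CPM, with the lowest erythroid marker at 0 in every library. In such bulk samples fewer cells of a type and less RNA per cell cannot be told apart.

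Every member was expressed. The lowest mean over the 4 libraries was 10.02 CPM and the highest 95.6 CPM, so all 76 were above the limit of 1 CPM that 13502 genes passed. Because members differ in length, with main records of 412 to 6712 bases and a median of 1049, levels of different genes were compared as CPM per kilobase of record. On that scale the median member stood at 31.1 in mock, 29.6 with cel-miR-67, 27.0 with hsa-miR-590-3p and 29.7 with hsa-miR-199a-3p. In mock the median was 8.88 over all tested genes, 244 over subunits of oxidative phosphorylation and 471 over cytosolic ribosomal proteins. Large-subunit members had a median of 31.6 per kilobase in mock and small-subunit members one of 27.2. The 45 members classed here as having bacterial relatives had a median of 34.5. The other 31, among them Mrps36, had one of 27.2. This classing was not checked on protein sequences, and some of the 31 may have bacterial relatives too.

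The most abundant member was Mrpl42, a large-subunit protein found in mitochondria only. It stood at 159 CPM per kilobase in mock, 155 with cel-miR-67, 121 with hsa-miR-590-3p and 140 with hsa-miR-199a-3p. Mrpl12, the protein of the stalk that receives translation factors, followed in the first 3 of these libraries at 108, 113 and 96.6 per kilobase, and stood at 55.4 with hsa-miR-199a-3p, below several other members. Mrpl30, Mrpl33 and the small-subunit protein Mrps21 completed the highest 5 in mock, at 88.2, 87.4 and 82.7 per kilobase. The lowest 5 in mock were Mrpl17 at 5.73, Mrpl19 at 6.41, Mrps25 at 6.47, Mrpl1 at 6.62 and Mrpl11 at 8.46 per kilobase. Mrpl1 forms one mobile stalk of the large subunit, and Mrpl11 lies at the base of the stalk that carries Mrpl12. These 5 have main records that are longer than the median member's, and a value per kilobase assumes that the whole record is transcribed.

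**Figure D1:**
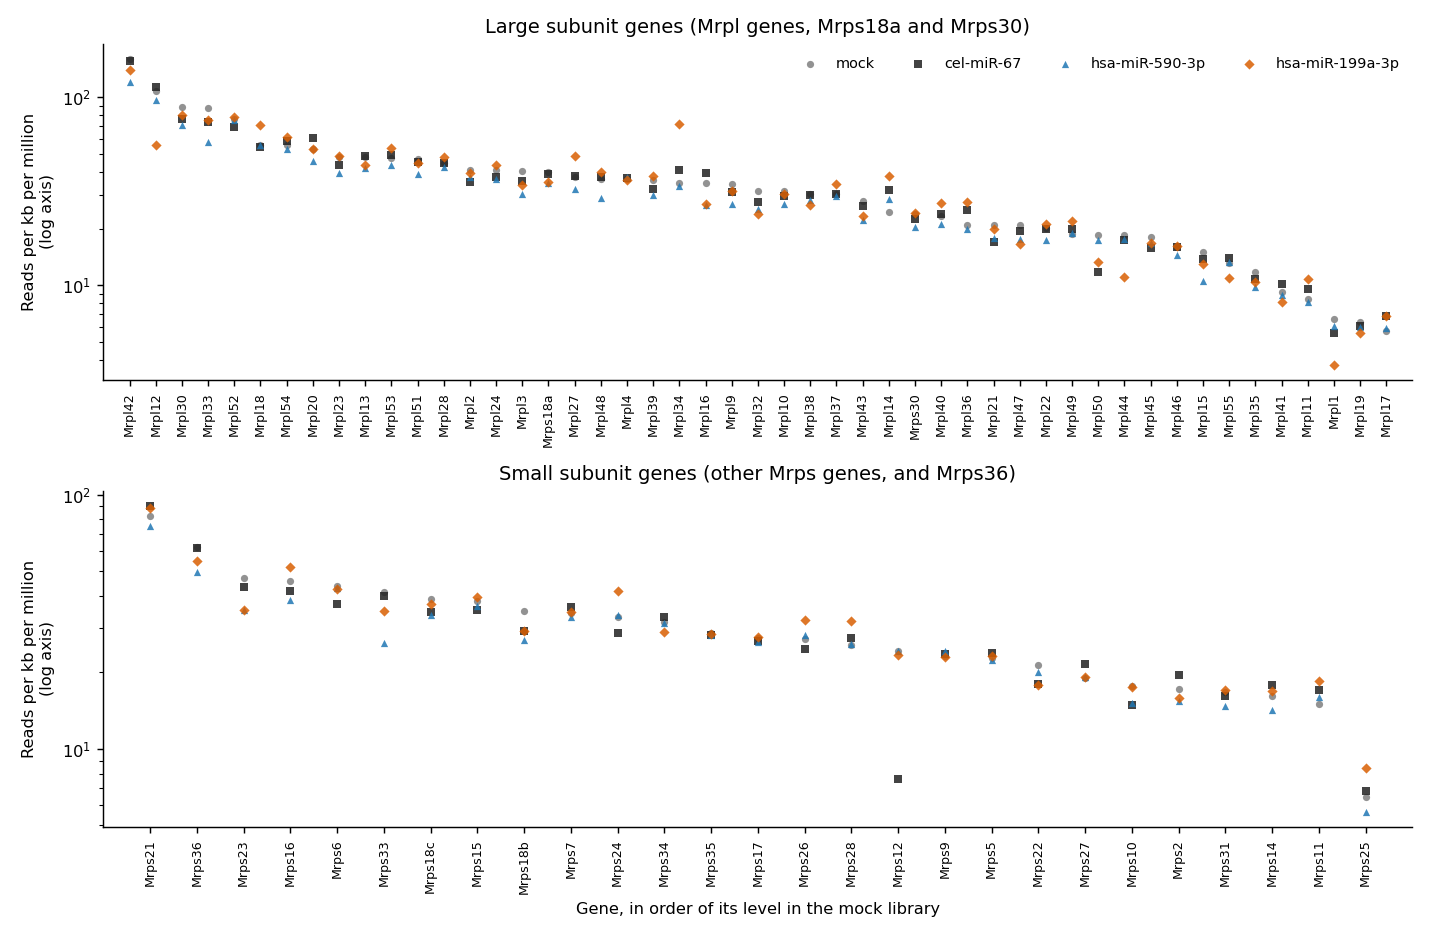
Level of each of the 76 members in each library, as CPM per kilobase on a log axis, in the order of the level in mock. Members span 5.73 to 159 in mock, and for most of them the 4 libraries lie close together.

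With hsa-miR-590-3p the mitochondrial ribosomal protein genes were slightly lower as a group. Summed over members, scaled reads were 0.911 times those with cel-miR-67 (95% interval 0.902 to 0.919) and 0.884 times those in mock (0.876 to 0.893). These intervals are exact conditional binomial ones and cover counting error only. Between the controls, the summed reads with cel-miR-67 were 0.971 times those in mock (0.962 to 0.980). The median log2 ratio of the members was -0.13 against cel-miR-67, with 58 of 76 below 0, and -0.14 against mock, with 64 below 0, while the median of all tested genes lay between -0.01 and 0.00. Scaled to total counts instead, members had medians of -0.06 and -0.04 and all genes 0.07 and 0.09; this scaling moves every gene of a library alike, so it leaves the distance between the medians as it was by construction. Below both controls at any size were 51 of 76 members (67.1%), against 36.6% of all tested genes. Above both were 5 members (6.58%), against 35.6%. Both subunits were lower: 34 of 47 large-subunit members and 14 of 26 small-subunit members lay below both controls, with median log2 ratios of -0.14 and -0.08 against cel-miR-67 and of -0.16 and -0.06 against mock. The same hsa-miR-590-3p library enters both ratios.

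This lower level was small for single genes. At a 1.3-fold difference from each control, 3 of 76 members were lower (3.95%), which is close to the 3.93% of all tested genes, and 0 were higher, against 5.95%. At 2-fold 0 members were higher and 0 lower, against 0.356% and 0.23% of tested genes. The 3 members past 1.3-fold were Mrps33, Mrpl16 and Mrpl15, of which Mrps33 alone remained when counts were scaled to library totals.

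Mrps33 is a protein of the small subunit's head found in mitochondria only. It had 1336 reads in mock, 1418 with cel-miR-67, 977 with hsa-miR-590-3p and 1483 with hsa-miR-199a-3p, or 44.0, 42.4, 27.6 and 36.8 CPM. The hsa-miR-590-3p library was the low one of the 4, at 0.652 times cel-miR-67 (0.6003 to 0.708) and 0.629 times mock (0.578 to 0.683). Mrps33 was also the only member at least 1.3-fold below each of the other 3 libraries with this mimic, as were 1.503% of tested genes. Only 37.0% of its reads were placed uniquely. Counting those alone, its log2 ratio was -0.71 against cel-miR-67 and -0.64 against mock.

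Mrpl16, a large-subunit protein close to the tRNA sites, had 39.6 CPM in mock and 44.6 with cel-miR-67, against 30.4 with hsa-miR-590-3p and 30.6 with hsa-miR-199a-3p. It was therefore low with both human mimics and not with hsa-miR-590-3p alone. The ratios with hsa-miR-590-3p were 0.681 and 0.769, and those with hsa-miR-199a-3p were 0.685 and 0.773, which just misses 1.3-fold against mock. With uniquely placed reads, or with DESeq2 size factors, Mrpl16 also missed 1.3-fold against mock with hsa-miR-590-3p. Mrpl15, another large-subunit protein with a bacterial relative, had 62.6, 57.4, 43.9 and 54.0 CPM in that order of libraries, with 38.6% of reads placed uniquely. Mrpl15 was at 0.764 and 0.701 times its controls with hsa-miR-590-3p. Just short of 1.3-fold were Mrpl33, with log2 ratios of -0.36 and -0.60, and Mrpl42, with -0.36 and -0.40.

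**Figure D2:**
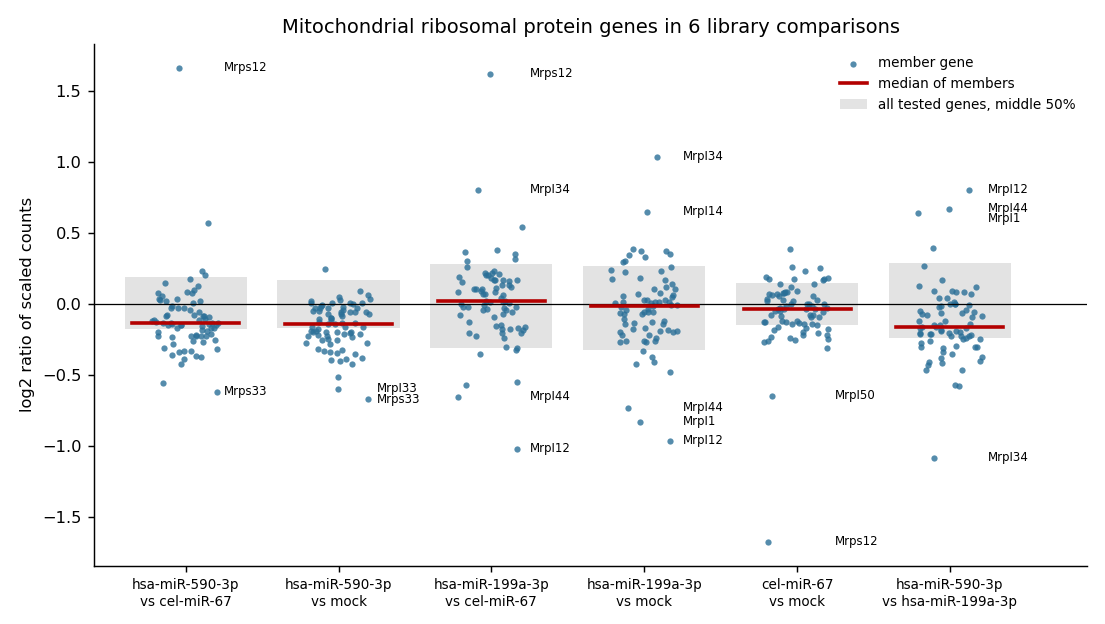
Log2 ratio of scaled counts for each member (points) in each of the 6 pairs of libraries, with the median of the members (red line) and the middle 50% of all tested genes (grey box). The members' median lies below 0 in the pairs with hsa-miR-590-3p, where 12 to 19 of 76 lie above 0, and near 0 with hsa-miR-199a-3p. Single genes stand far from the rest.

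Most members have short records, and record length moved with the ratios of all genes. Over the 1163 tested genes with main records under 1 kb the median log2 ratio with hsa-miR-590-3p was -0.10 against cel-miR-67 and -0.14 against mock. Over the 3874 genes of 4 kb or more it was 0.03 and 0.06. The 33 members under 1 kb had medians of -0.14 and -0.16, close to those of all genes of that length. From 1 to 2 kb the 32 members had -0.12 and -0.13, against -0.03 and -0.07 for all genes. The 7 members of 2 to 4 kb had -0.13 and -0.10, against 0.01 and 0.00, and the 4 of 4 kb or more had -0.24 and -0.15. Under 1 kb 69.7% of the 33 members lay below both controls with hsa-miR-590-3p, against 54.2% of all genes of that length. From 1 to 2 kb 65.6% of 32 members did, against 44.6%. With hsa-miR-199a-3p the order was opposite: genes under 1 kb had medians of 0.13 and 0.08, and those of 4 kb or more -0.12 and -0.09. Members under 1 kb had 0.11 and 0.02. From 1 to 2 kb the 32 members had -0.001 and -0.009 with this mimic, below the 0.08 and 0.04 of all genes of that length. The part of record length, and of the lower cardiomyocyte markers, in the members' ratios was not tested.

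**Figure D3:**
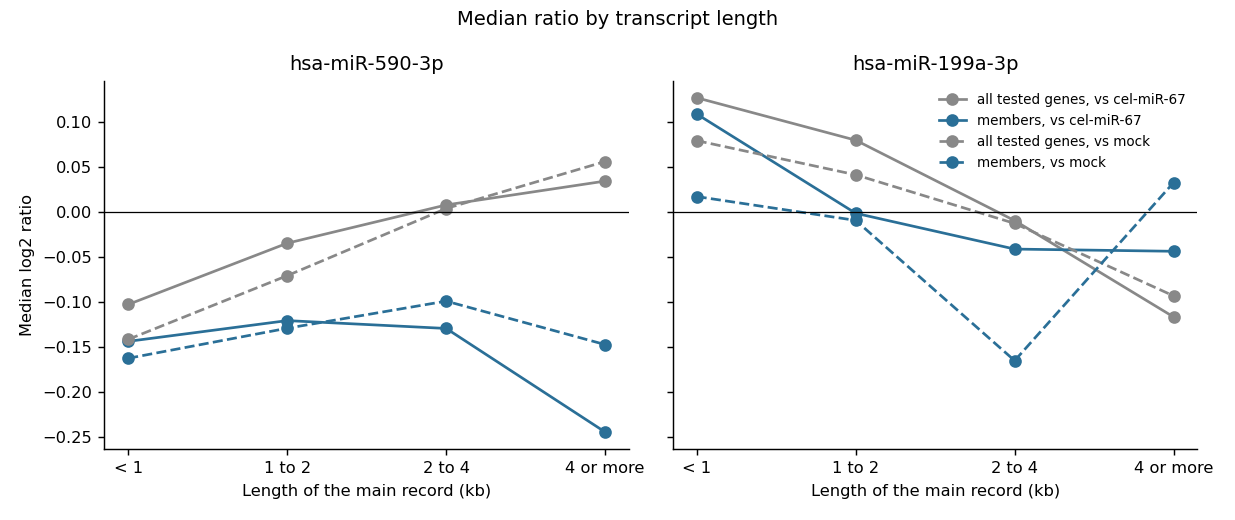
Median log2 ratio of members and of all tested genes in 4 bands of main record length, for each human mimic against each control. Under 1 kb all genes lie below 0 with hsa-miR-590-3p and above 0 with hsa-miR-199a-3p; the upper bands hold 7 and 4 members only.

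With hsa-miR-199a-3p the members as a group stayed level with all tested genes taken over every length, while a few single members differed clearly. Their median log2 ratio was 0.02 against cel-miR-67 and -0.01 against mock, and with scaling to total counts 0.11 and 0.10, beside 0.09 and 0.10 for all genes. At any size 30 of 76 members (39.5%) lay above both controls and 28 (36.8%) below both, against 40.2% and 41.9% of all tested genes. At 1.3-fold from both, 1 member was higher (1.32%, against 12.8% of tested genes; 5 members with scaling to total counts) and 3 were lower (3.95%, against 15.9%). At 2-fold 0 members were higher and 0 lower, against 2.4% and 2.34%. The mature strand of the mouse microRNA of that name is shown because its mimic's library holds the members farthest from both controls. It is from RefSeq (GRCm38.p6), with the seed, bases 2 to 8, in capitals.
mmu-miR-199a-3p: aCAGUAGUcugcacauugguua

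The 3 members at least 1.3-fold below both controls with hsa-miR-199a-3p all belong to the large subunit. Mrpl12, the stalk protein that contacts translation factors and is also known to bind the mitochondrial RNA polymerase, had 3166 reads in mock, 3627 with cel-miR-67, 3290 with hsa-miR-590-3p and 2148 with hsa-miR-199a-3p, or 104, 108, 93.1 and 53.3 CPM. The first 3 libraries were close together and the last was low, at 0.492 times cel-miR-67 (0.466 to 0.519) and 0.512 times mock (0.484 to 0.541).

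Mrpl44, a large-subunit protein with a fold of the ribonuclease III family, had 795, 830, 890 and 636 reads in that order of libraries, or 26.2, 24.8, 25.2 and 15.8 CPM. Again only the last library was low, at 0.637 times cel-miR-67 (0.573 to 0.706) and 0.604 times mock (0.543 to 0.671). Mrpl1, the protein of the stalk beside the tRNA exit site, had 658, 603, 673 and 490 reads over its 2 records, or 21.7, 18.0, 19.0 and 12.2 CPM. It was at 0.675 times cel-miR-67 (0.598 to 0.762) and 0.562 times mock (0.499 to 0.633). Of its reads 45.8% were placed uniquely, and with those alone its log2 ratios were -0.73 and -0.83. Each of these 3 genes was also at least 1.3-fold below the hsa-miR-590-3p library, as were 12.3% of tested genes in all 3 pairs.

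Mrpl34, a small basic protein of the large subunit, went the other way. It had 704 reads in mock, 911 with cel-miR-67, 792 with hsa-miR-590-3p and 1917 with hsa-miR-199a-3p, or 23.2, 27.2, 22.4 and 47.6 CPM. The hsa-miR-199a-3p library was the high one, at 1.75 times cel-miR-67 (1.61 to 1.89) and 2.05 times mock (1.88 to 2.24). At least 1.3-fold above each of the other libraries were 7.72% of tested genes. Next among the members above both controls, by the smaller of the 2 ratios, were Mrps24, with log2 ratios of 0.55 and 0.33, Mrpl18 with 0.38 and 0.35 and Mrpl27 with 0.35 and 0.37, each short of 1.3-fold against 1 or both controls. Mrps23, a small-subunit protein found in mitochondria only, was low with both human mimics as Mrpl16 was, at -0.31 and -0.42 with each. Mrps24, Mrpl18 and Mrps23 were named after their values were seen.

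**Figure D4:**
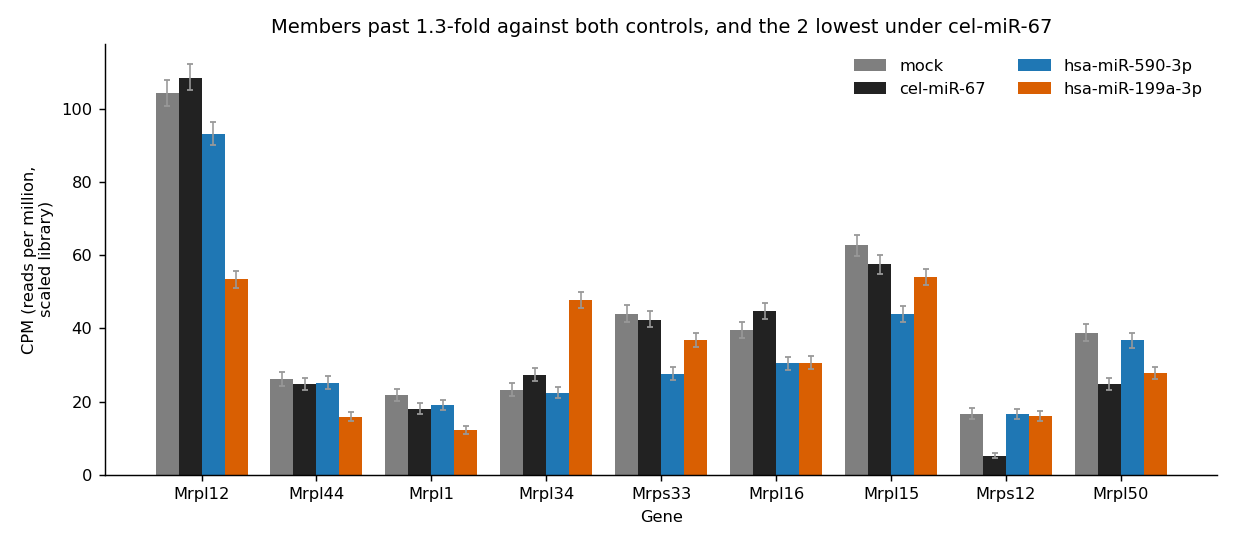
CPM in each library, with exact 95% Poisson intervals (counting error only), for the members past 1.3-fold against both controls and the 2 lowest members with cel-miR-67 against mock. Mrpl12, Mrpl44 and Mrpl1 are low and Mrpl34 high in the hsa-miR-199a-3p library, and Mrps12 is low in the cel-miR-67 library.

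The member farthest from the rest in any pair of libraries differed between the controls themselves. Mrps12, the small-subunit protein of the decoding site, had 506 reads in mock, 174 with cel-miR-67, 585 with hsa-miR-590-3p and 645 with hsa-miR-199a-3p, or 16.7, 5.20, 16.5 and 16.02 CPM. Mock and both human mimics were level, and cel-miR-67 was at 0.313 times mock (0.261 to 0.372). All of its reads were placed uniquely. Against cel-miR-67 alone Mrps12 would stand at a log2 ratio of 1.67 with hsa-miR-590-3p and of 1.62 with hsa-miR-199a-3p, and against mock at -0.01 and -0.06. At least 2-fold below each of the other 3 libraries with cel-miR-67 were 41 tested genes (0.304%).

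Stretches upstream of the start of the 4 members with the clearest single-library values are shown for the motifs they hold. They run 5′ to 3′ on the strand of the gene, come from RefSeq (GRCm38.p6), and carry motif matches in capitals. Mrps12 (chr7:28741822-28741967, minus strand) shares its upstream stretch with Sars2, the mitochondrial seryl-tRNA synthetase, whose start lies 147 bases away on the other strand. Mrpl12 lies at chr11:120484387-120484636 (plus strand), Mrpl34 at chr8:71464676-71464925 (plus strand) and Mrpl44 at chr1:79775768-79776017 (plus strand). The capitals mark an E2F motif (TTTCCCGC) in Mrps12, an NRF1 motif (GCGCA, any base, then GCGC) in Mrpl44, the same NRF1 motif on the opposite strand in Mrpl12, where it reads as its reverse complement, and an ETS motif (CCGGAAG) in Mrpl34. The Mrps12 stretch is cut at the start of Sars2. In the wider window counted below, Mrps12 also has an ETS motif, which is not within the stretch printed.
Mrps12: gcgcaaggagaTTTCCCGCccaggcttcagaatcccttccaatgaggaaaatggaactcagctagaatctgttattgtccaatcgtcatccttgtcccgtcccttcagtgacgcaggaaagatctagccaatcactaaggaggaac
Mrpl12: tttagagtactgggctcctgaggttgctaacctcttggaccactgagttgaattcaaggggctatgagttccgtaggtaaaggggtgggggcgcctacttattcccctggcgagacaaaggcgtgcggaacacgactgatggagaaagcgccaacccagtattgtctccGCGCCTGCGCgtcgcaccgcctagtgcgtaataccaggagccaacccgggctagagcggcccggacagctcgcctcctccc
Mrpl34: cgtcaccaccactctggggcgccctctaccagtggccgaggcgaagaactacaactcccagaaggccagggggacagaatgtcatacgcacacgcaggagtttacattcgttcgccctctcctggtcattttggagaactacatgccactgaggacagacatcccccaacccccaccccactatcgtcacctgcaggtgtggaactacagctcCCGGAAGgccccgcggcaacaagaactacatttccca
Mrpl44: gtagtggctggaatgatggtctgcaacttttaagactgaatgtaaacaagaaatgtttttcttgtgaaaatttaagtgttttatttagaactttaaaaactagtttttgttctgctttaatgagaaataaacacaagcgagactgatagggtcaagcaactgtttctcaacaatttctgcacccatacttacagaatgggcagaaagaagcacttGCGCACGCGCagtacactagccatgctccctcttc

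NRF1 and the ETS factor GABP are known regulators of nuclear genes for mitochondrial proteins. In windows of 250 bases before to 50 after the start, available for 67 of 76 members, the NRF1 motif occurred on either strand in 12 members (17.9%), in 11.4% of other tested genes and in 4.603% of all windows. The ETS motif occurred in 24 members (35.8%), in 19.6% of other tested genes and in 8.86% of windows. The YY1 motif AAGATGGCG occurred in 8 members (11.9%), in 3.51% and in 1.40%, and the E2F motif in 1 member (1.49%), in 2.36% and in 1.07%. None of the 4 was found in 28 members (41.8%), against 67.8% of other tested genes. Members with and without the ETS motif had medians of -0.19 and -0.13 with hsa-miR-590-3p against cel-miR-67, and of -0.20 and -0.14 against mock. For NRF1 the values were -0.12 and -0.14 against cel-miR-67 and -0.12 and -0.18 against mock, and for YY1 -0.15 and -0.14, and -0.05 and -0.16. With hsa-miR-199a-3p against cel-miR-67 they were 0.05 and 0.07 for ETS, 0.01 and 0.09 for NRF1, and 0.04 and 0.07 for YY1. Against mock the same mimic gave -0.02 and -0.01 for ETS, -0.05 and 0.01 for NRF1, and 0.10 and -0.01 for YY1. Sars2, the neighbour of Mrps12, had 342 reads in mock, 363 with cel-miR-67, 423 with hsa-miR-590-3p and 458 with hsa-miR-199a-3p, a log2 ratio of -0.05 between the controls.

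The controls were close for most other members. Their median log2 ratio, cel-miR-67 against mock, was -0.03, with 32 members above 0 and 44 below, where all tested genes split into 50.3% and 49.7%. At 2-fold 0 members were higher, against 0.652% of tested genes, and Mrps12 alone was lower, against 1.33%. At 1.3-fold 1 member was higher, against 6.93% of tested genes, and 2 were lower, against 8.89%. The higher one was Mrpl14, a large-subunit protein bound by the assembly factor Malsu1, with 16.4 CPM in mock, 21.4 with cel-miR-67, 19.4 with hsa-miR-590-3p and 25.7 with hsa-miR-199a-3p. Mrpl14 was lowest in mock and higher in the other 3. Besides Mrps12 the lower one was Mrpl50, a large-subunit protein found in mitochondria only, with 38.8, 24.7, 36.7 and 27.8 CPM in the same order. It stood at 0.637 times mock with cel-miR-67 (0.582 to 0.697) and was also low with hsa-miR-199a-3p. Next in order were Mrpl17 and Mrpl36 at 0.26 and Mrpl34 at 0.23 on the log2 scale, and Mrpl21 at -0.31 and Mrpl1 at -0.26.

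Compared directly, hsa-miR-590-3p was lower than hsa-miR-199a-3p for most members. The median log2 ratio was -0.16, with 57 of 76 below 0 and 19 above, where all tested genes split into 49.6% and 50.4%, and the summed reads were at 0.911 (0.903 to 0.919). Short genes were lower in this pair as well: of all tested genes under 1 kb 73.9% lay below 0, with a median of -0.22, and the 33 members of that length had a median of -0.21. From 1 to 2 kb the medians were -0.11 for all genes and -0.15 for 32 members. At 1.3-fold 10 members were lower (13.2%, against 14.9% of tested genes) and 4 were higher (5.26%, against 19.6%). At 2-fold Mrpl34 alone was lower, against 1.87% of tested genes, and 0 were higher, against 2.71%. The highest were Mrpl12 at 0.80, Mrpl44 at 0.67, Mrpl1 at 0.65 and Mrpl50 at 0.40. The lowest were Mrpl34 at -1.09, Mrpl27 and Mrps25 both at -0.57 and Mrpl36 at -0.46. Only 6.95% of the reads of Mrpl36 and 9.65% of those of Mrpl48 were placed uniquely. With such reads alone both missed 1.3-fold, and 8 members were lower. Mrpl27 lies near the peptidyl transferase centre, and Mrps25 is found in mitochondria only. For the first 3 of the highest and for Mrpl34 it was the hsa-miR-199a-3p library that stood away from the controls.

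Log2 ratios of members were spread less widely than those of genes in the same range of abundance. Over the 7412 tested genes with a mean between 10.02 and 95.6 CPM, the robust SD of the log2 ratio was 0.245 with hsa-miR-590-3p against cel-miR-67 and 0.400 with hsa-miR-199a-3p. For the members it was 0.148 and 0.225. Between the controls it was 0.159 for members and 0.188 for those genes. At 1.3-fold against both controls, 2.77% of those genes were lower with hsa-miR-590-3p, 15.1% were lower with hsa-miR-199a-3p and 11.2% were higher with it. Mrps35 and Mrpl4 were among the steadiest members: their 6 log2 ratios ran from -0.03 to 0.02 and from -0.02 to 0.04.

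Of the members, 9 had fewer than 50% of their reads placed uniquely, which leaves their totals open to how shared reads were divided. Besides Mrps33, Mrpl15 and Mrpl1 these were Mrps18b with 34.8%, Mrps36 with 13.7%, Mrpl48 with 9.65%, Mrpl36 with 6.95%, Mrps2 with 4.05% and Mrps10 with 2.40%. Over all 9, log2 ratios with hsa-miR-590-3p ran from -0.62 (Mrps33) to 0.08 (Mrpl1) against cel-miR-67. Against mock they ran from -0.67 (Mrps33) to -0.07 (Mrpl36).

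The files name 7 further mitochondrial ribosomal proteins by symbols outside the rule, among them Mrpl57 and Mrpl58, which appear there under the older symbols Mrp63 and Ict1. At 1.3-fold against both controls 1 of the 7 was lower with hsa-miR-199a-3p, as were 15.9% of all tested genes. Ptcd3, an RNA-binding pentatricopeptide protein of the small subunit, had 2617 reads in mock, 2682 with cel-miR-67, 2670 with hsa-miR-590-3p and 1382 with hsa-miR-199a-3p. It was level in the first 3 libraries and low in the last, with log2 ratios of -1.22 and -1.33, farther from both controls than any of the 76 members. Dap3, Chchd1, Aurkaip1, Mrpl57, Mrpl58 and Gadd45gip1 lay between -0.19 and 0.12 with this mimic against both controls. With hsa-miR-590-3p, 5 of the 7 were below both controls at any size, as were 36.6% of all tested genes.

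At 1.3-fold against both controls, 15.9% of all tested genes were lower with hsa-miR-199a-3p and 12.8% were higher. The counts of other genes of mitochondrial translation are to be read beside those shares. With hsa-miR-590-3p 0 genes of these lists were lower at 1.3-fold, where 3.93% of all tested genes were. Each pair of values here is the log2 ratio to cel-miR-67, then to mock. Of 16 translation factors, 3 were lower with hsa-miR-199a-3p: Mtrf1, a release factor family member, at -0.69 and -0.81, the elongation factor Gfm1 at -0.50 and -0.41, and Guf1, chosen after its values were seen, at -0.79 and -0.86. The highest were Tsfm at 0.11 and 0.17 and Mtfmt, which makes formyl-methionyl tRNA, at 0.30 and 0.06. Of 27 assembly and rRNA modification factors 1 was lower, Fastkd2 at -0.50 and -0.72. Mrm1 stood at -0.26 and -0.40, Tfb1m at 0.26 and 0.36 and Mettl15 at 0.31 and 0.25. Of 17 mitochondrial aminoacyl-tRNA synthetases 1 was lower, Nars2 at -0.56 and -0.51. Yars2 stood at -0.29 and -0.45 and Wars2 at 0.41 and -0.13. In the list of 12 genes for mitochondrial transcription and DNA upkeep, Mterf2 at -1.20 and -1.25 and the transcription factor Tfb2m at -0.98 and -0.88 were lower, and the topoisomerase Top1mt at 1.02 and 0.44 was higher, while the DNA polymerase Polg stood at 0.24 and 0.01. Of 9 nuclear regulators 3 were lower, among them Gabpa, the DNA-binding subunit of GABP, at -0.94 and -0.85, with 1900 reads in mock, 2224 with cel-miR-67, 2204 with hsa-miR-590-3p and 1396 with hsa-miR-199a-3p. Ppargc1b was at -0.57 and -0.69, and Ppargc1a, with 1.16% of reads placed uniquely and named after its values were seen, at -0.52 and -0.42. Gabpb1 stood at 0.05 and -0.01 and Nrf1 at 0.12 and 0.03. The median of the translation factors with hsa-miR-199a-3p was -0.21 and -0.22, and that of the 76 members 0.02 and -0.01.

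Oxidative phosphorylation subunits and the proteins of the cytosolic ribosome are set beside the members for comparison. The shares of all tested genes given with them are over genes of every length. The part of record length in the ratios of these lists was not tested. Nuclear subunits of oxidative phosphorylation were lower with hsa-miR-590-3p, with median log2 ratios of -0.23 and -0.32 and 72 of 79 below both controls (91.1%, against 36.6% of all tested genes). At 1.3-fold 8 were lower (10.1%, against 3.93%). With hsa-miR-199a-3p 12 of 79 were lower at 1.3-fold (15.2%), close to the 15.9% of all tested genes, with Ndufb7 at -1.30 and -1.26 and Cox5b at -0.77 and -0.98, while Atp5g2 stood at 0.35 and 0.41. Ndufa6, an oxidative phosphorylation subunit, shared the low cel-miR-67 value of Mrps12, with 3146 reads in mock, 888 with cel-miR-67, 2740 with hsa-miR-590-3p and 3553 with hsa-miR-199a-3p. Cytosolic ribosomal proteins had medians of -0.08 and -0.19 with hsa-miR-590-3p and of 0.33 and 0.21 with hsa-miR-199a-3p, where 73 of 82 lay above both controls (89.0%, against 40.2% of all tested genes), as did 30 of the 76 members (39.5%). Many reads of cytosolic ribosomal protein genes are shared with other records: the median gene had 23.9% placed uniquely. With hsa-miR-199a-3p Rpl5 stood at 0.25 and -0.48, Rpl31 at -0.58 and 0.25, Rpl18 at 0.84 and 0.34 and Rps4l at 0.45 and 1.00.

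**Figure D5:**
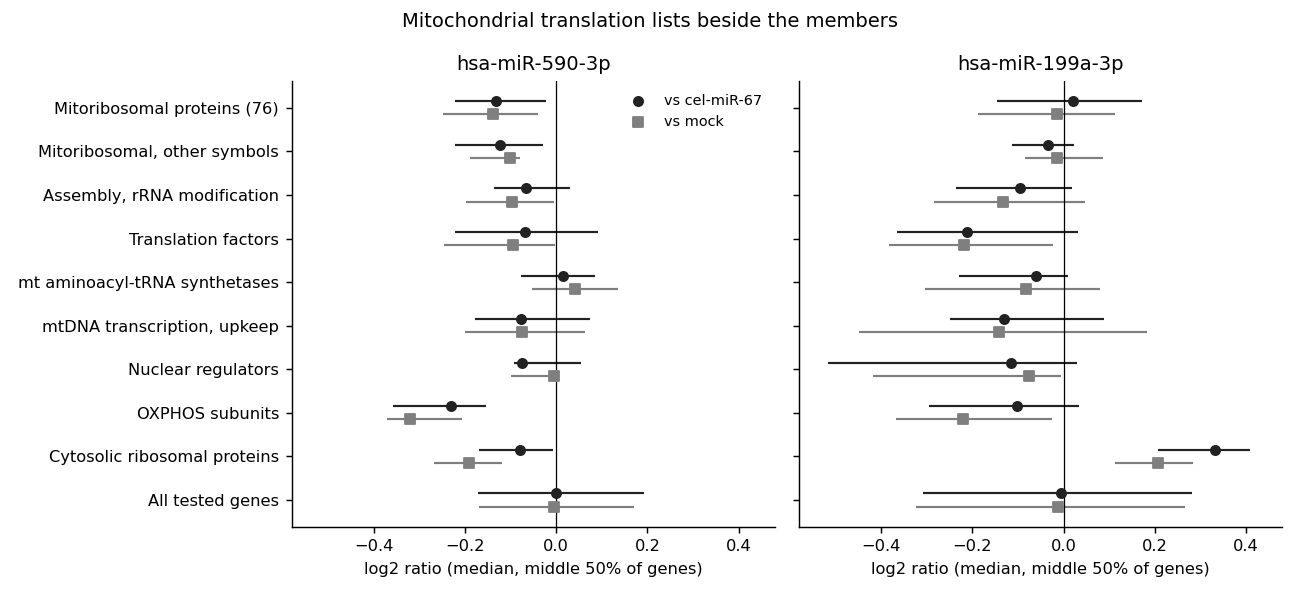
Median log2 ratio (points) and middle 50% of genes (lines) for the members, for other lists and for all tested genes, against cel-miR-67 and against mock. Members lie between oxidative phosphorylation subunits and 0 with hsa-miR-590-3p, and at 0 with hsa-miR-199a-3p, where cytosolic ribosomal proteins lie above 0.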

How the data were processed

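RNA sequencing had been done on 4 libraries, 1 per condition, grouped by the treatment in the labels. Per the file headers, the deposited tables hold 36065 RefSeq transcript records, each with its length, a count of total and of uniquely placed reads, and the RPKM that the authors computed. In the deposited values RPKM equals total reads per kilobase relative to the library's summed reads, and it served only as an alternative. Per the labels' protocols RNA was total RNA and libraries were made with a TruSeq kit. CASAVA 1.8 and mm8 are named in the submitters' processing notes with no role. What program mapped the reads was not given in the sources used here. Between 67.6% and 68.7% of the reads of a library were placed uniquely, so reads of related records may be divided between them.

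Symbols came from RefSeq (GRCm38.p6) by accession for 27926 records and from the headers for 8139, and records of a gene were summed. The TMM factors of edgeR 4.0.16 (R 4.3.3) scaled the libraries, and edgeR had no other use. Log2 ratios of CPM (counts scaled to library size) used a prior count of 0.5, over the 13502 genes whose mean reached 1 CPM. With 0 residual degrees of freedom neither a test nor a p-value could be had, and nothing says how cultures or animals were pooled. A member met the criterion when it was 1.3-fold from cel-miR-67 and from mock, each taken separately, in the same direction, and by a single ratio in the other comparisons. Intervals are exact (Clopper-Pearson) 95% ones. Python 3.11.15, numpy 2.4.6, pandas 2.3.3, scipy 1.17.1 and matplotlib 3.10.9 were used, and the ratios were checked on simulated counts.

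Named members were, per microRNA, up to 8 per direction past the criterion, the 4 highest and 4 lowest in the other comparisons, the 5 most and 5 least abundant per kilobase, and those under 50% uniquely placed reads. Of other lists the 2 highest and 2 lowest genes by mean ratio over both microRNAs were named, and of ribosomal proteins with other symbols all; 1 gene so selected is not reported here. Mrpl33 and Mrpl42 as just outside the criterion, Mrps35 and Mrpl4, and Sars2 were named after their values were seen. The members and lists were chosen with earlier results of these data known, and the subunit roles, motifs and printed promoters were chosen after the values were seen. Alternatives were DESeq2 1.42.0 size factors, total counts, RPKM with a pseudocount of 0.1, uniquely placed reads, the record with most reads, other priors and filters, and each control alone.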

Additional observations from a re-analysis of the deposited data

How the results depend on the processing

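Of the values recomputed under an alternative, 109 stayed within 1.5 times the count, or for medians near the middle of the members' own ratios, and 27 moved further. With scaling to total counts or the deposited RPKM, the members lower with hsa-miR-590-3p went from 3 to 1 in each, and their medians from -0.13 to -0.0604 and -0.0598 against cel-miR-67, and from -0.14 to -0.0426 and -0.0396 against mock. With the same 2 settings the members higher with hsa-miR-199a-3p went from 1 to 5 in each (Mrpl18, Mrpl27, Mrps24 and Mrps25 beside Mrpl34), and the medians from 0.02 to 0.1116 and 0.1113 against cel-miR-67, and from -0.01 to 0.0997 and 0.0995 against mock, a turn of sign. That scaling shifts the median of all genes by 0.07 to 0.10 in these pairs. Uniquely placed reads gave 3 members higher with hsa-miR-199a-3p and 3 higher with cel-miR-67 against mock in place of 1 each. With cel-miR-67 as the control alone, hsa-miR-590-3p had 2 higher members and hsa-miR-199a-3p 4 higher; with mock alone, hsa-miR-590-3p had 8 lower and hsa-miR-199a-3p 3 higher and 6 lower. At 2-fold, 0 members were lower with hsa-miR-590-3p, 0 were higher and 0 lower with hsa-miR-199a-3p, 0 were higher and 1 lower with cel-miR-67 against mock, and 0 were higher and 1 lower in the direct comparison. Without the 9 members under 50% uniquely placed reads, a setting chosen after seeing the data, 1 remained lower with hsa-miR-590-3p, Mrpl16. Mrpl16 itself passed only narrowly and did not pass with DESeq2 size factors, total counts, uniquely placed reads, the most-read record or RPKM. Under every scaling, counting and RPKM setting Mrpl1, Mrpl12, Mrpl44 and Mrpl34 stayed past 1.3-fold with hsa-miR-199a-3p, Mrps33 with hsa-miR-590-3p, and Mrps12, Mrpl50 and Mrpl14 with cel-miR-67 against mock. In the direct comparison Mrpl50, higher at 0.40, missed 1.3-fold with RPKM. The cause of these shifts was not tested. No paired analysis was possible because each condition has 1 library, and for the same reason no replicate could be left out. A count of 0 allows up to 3 reads, far below any member's total.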
